A study of Mus musculus with 3 samples.

Results

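The 10 classical cyclin genes that drive the cell cycle were followed through the germ cells of adult mouse testis, from spermatogonia to elongating spermatids. They were the A-type genes Ccna1 and Ccna2, the B-type genes Ccnb1, Ccnb2 and Ccnb3, the D-type genes Ccnd1, Ccnd2 and Ccnd3, and the E-type genes Ccne1 and Ccne2. They were chosen by symbol, and each symbol matched 1 of the 32285 genes in the count tables. All 10 are annotated as protein-coding. The data were single-cell 3′ RNA libraries of the 10x Genomics type from C57BL/6N testes, in which each copied transcript end is tagged with a barcode for its cell and a random code for the molecule (UMI). Wildtype replicate 1 and wildtype replicate 2 each came from 1 mouse, and the knockout library combined 2 mice in which Tex10 was conditionally deleted. The labels give the mice as adult, and do not say which Cre was used or which exons were removed. Knockout values have no replicate, so no p-value is given.

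Cyclins are the regulatory subunits of the cyclin-dependent kinases, and each is made and destroyed at its own time. D-type cyclins act with Cdk4 and Cdk6 in the growth phase before DNA synthesis, and E-type cyclins act with Cdk2 at entry into it. Ccna2 serves DNA synthesis and entry into mitosis, and B-type cyclins form with Cdk1 the kinase that drives M phase. Germ cells use the same machinery first for the mitotic divisions of spermatogonia and then for meiosis, in which a long prophase separates the last DNA synthesis from the divisions. Ccna1, unlike Ccna2, is largely restricted to germ cells, and male mice without it do not complete meiosis. Ccnb3 is a large B-type cyclin encoded on the X chromosome, which is silenced in spermatocytes in mid prophase.

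Positions are those of GENCODE M21 on GRCm38. The 2 genes whose levels followed each other most closely among the B-type cyclins, Ccnb1 (chromosome 13, 100778650 to 100786570, minus strand) and Ccnb2 (chromosome 9, 70407692 to 70421547, minus strand), are shown here beside Ccna1 (chromosome 3, 55045469 to 55055501, minus strand) and Ccnb3 (chromosome X, 6979652 to 7041619, minus strand). The stretch shown lies within the 250 bases before a listed start of transcription and leaves out any base in an annotated exon. For Ccna1 and Ccnb1 this start lies inside the gene span given above, and the whole stretch shown for Ccna1 lies inside its gene. Sequences are RefSeq's on GRCm38.p6, 5′ to 3′ on the gene's strand, and capitals mark CCAAT or its reverse complement ATTGG, and TTTGAA.
Ccna1, chr3:55055056-55055241, minus strand: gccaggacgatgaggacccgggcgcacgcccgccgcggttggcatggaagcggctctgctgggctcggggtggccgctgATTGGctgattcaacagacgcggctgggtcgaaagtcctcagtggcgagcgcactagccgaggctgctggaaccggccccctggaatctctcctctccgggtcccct
Ccnb1, chr13:100786571-100786736, minus strand: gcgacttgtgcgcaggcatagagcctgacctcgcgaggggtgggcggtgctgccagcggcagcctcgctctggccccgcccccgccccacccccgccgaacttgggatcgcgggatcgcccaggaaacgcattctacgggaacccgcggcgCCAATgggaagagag
Ccnb2, chr9:70421555-70421804, minus strand: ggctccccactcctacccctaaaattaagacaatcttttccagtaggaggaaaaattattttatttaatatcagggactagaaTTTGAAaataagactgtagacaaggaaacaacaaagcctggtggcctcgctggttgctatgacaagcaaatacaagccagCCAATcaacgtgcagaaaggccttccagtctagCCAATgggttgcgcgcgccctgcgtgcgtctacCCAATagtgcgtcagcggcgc
Ccnb3, chrX:7041620-7041869, minus strand: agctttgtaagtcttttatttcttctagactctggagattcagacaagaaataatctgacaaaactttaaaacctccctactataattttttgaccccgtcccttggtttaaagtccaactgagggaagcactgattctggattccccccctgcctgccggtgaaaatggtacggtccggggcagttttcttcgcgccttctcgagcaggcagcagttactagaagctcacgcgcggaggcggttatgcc
The CCAAT box is bound by the factor NF-Y and occurs in many promoters of M-phase genes. It was found 3 times before Ccnb2, at 17 to 21, 50 to 54 and 83 to 87 bases before the start. Ccnb1 had 2 copies, at 63 to 67 bases, in the exonic part not shown, and at 95 to 99 bases. Ccna1 had 1 copy, on the opposite strand, at 103 to 107 bases, and Ccnb3 had none. Over the 32851 promoters of the table, 33.8% held CCAAT on either strand in this window. The element TTTGAA, known as the CHR, occurred in 16.0% of promoters and among the cyclins only before Ccnb2, at 162 to 167 bases. The MYB core AACNG, present in 74.2% of promoters, had 4 matches before Ccnb3, 3 before Ccna1, 1 before Ccnb1 and 0 before Ccnb2. The E2F core TTTNNCGC (4.3% of promoters) and the CRE TGACGTCA (1.5%) had no match before these 4 genes, on either strand. The promoter windows differed in base composition, with 71.2% G and C for Ccna1, 69.6% for Ccnb1, 47.6% for Ccnb2 and 48.0% for Ccnb3. Ccnd3 and Ccne1 also had entries, and Ccna2, Ccnd1, Ccnd2 and Ccne2 were not in the table.

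The libraries held 93418341 UMIs in 9967 barcodes, 96001773 UMIs in 10153 barcodes and 147783171 UMIs in 12918 barcodes, in the order wildtype replicate 1, wildtype replicate 2 and knockout, which is the order of every triple of values given here. Pairs of libraries shared 27 to 30 barcodes. Of the barcodes kept, 54.8%, 40.2% and 64.8% fell into clusters with few UMIs and were left out of the germ cell classes, and 10452 germ cells were named in all. Markers of early and late spermatocytes, round spermatids and elongating spermatids each summed highest in the class of that name. Spermatogonia were named from the joint list of undifferentiated and differentiating markers. The undifferentiated list alone summed to 176, 197 and 204 UMIs per 1000000 UMIs (CPM) there and to 189, 173 and 145 CPM in early spermatocytes, so it did not set spermatogonia apart. Markers of elongating spermatids summed to 5976, 6693 and 6376 CPM in spermatogonia, so these barcodes also held transcripts typical of another cell type.

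Tex10 was measured at 143, 124 and 131 CPM in spermatogonia and at 113, 111 and 106 CPM in early spermatocytes. It stood at 56.9, 56.4 and 48.2 CPM in late spermatocytes, 17.0, 19.2 and 11.01 CPM in round spermatids and 3.43, 3.19 and 2.44 CPM in elongating spermatids. The knockout value lay between the wildtype values in spermatogonia and under both in the other 4 classes, in each case by less than 2-fold. A 3′ count sees the end of a transcript and not a deleted exon, so these values do not check the knockout label. The 3′ end of Tex10 also overlaps Invs.

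The germ cells, clustered without the 10 cyclins, were ordered by joining each cluster to its nearest neighbours. The clusters before elongating spermatids formed an unbranched path of 16 steps, and the elongating clusters were put after them as step 17. Steps 1 and 2 were spermatogonia-like, steps 3 to 6 early spermatocyte-like and steps 8 to 11 late spermatocyte-like. Steps 13 to 16 were round spermatid-like, and step 17 held 9 elongating spermatid-like clusters. Steps 7 and 12 met no marker rule and stay unnamed. Levels are CPM over all cells of a step in 1 library, and the step totals ran from 529942 UMIs (step 4, wildtype replicate 1) to 28662446 UMIs (step 17, knockout). One UMI stands for 1 transcript end, so CPM are not divided by gene length, although capture may differ between genes. The last 500 bases of Ccna2, Ccnd1, Ccnd2, Ccnd3 and Ccne2 overlap a gene on the opposite strand, and without knowing whether counting used the strand, their reads cannot be told apart. All 10 cyclins had their highest step in common across the 3 libraries. The order of the peaks ran from Ccnd2 (step 1) through Ccna2 and Ccnd1 (step 2), Ccne1 and Ccne2 (step 3), Ccnb3 (step 4), Ccna1 and Ccnb1 (step 10) and Ccnb2 (step 11) to Ccnd3 (step 14).

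**Figure D1:**
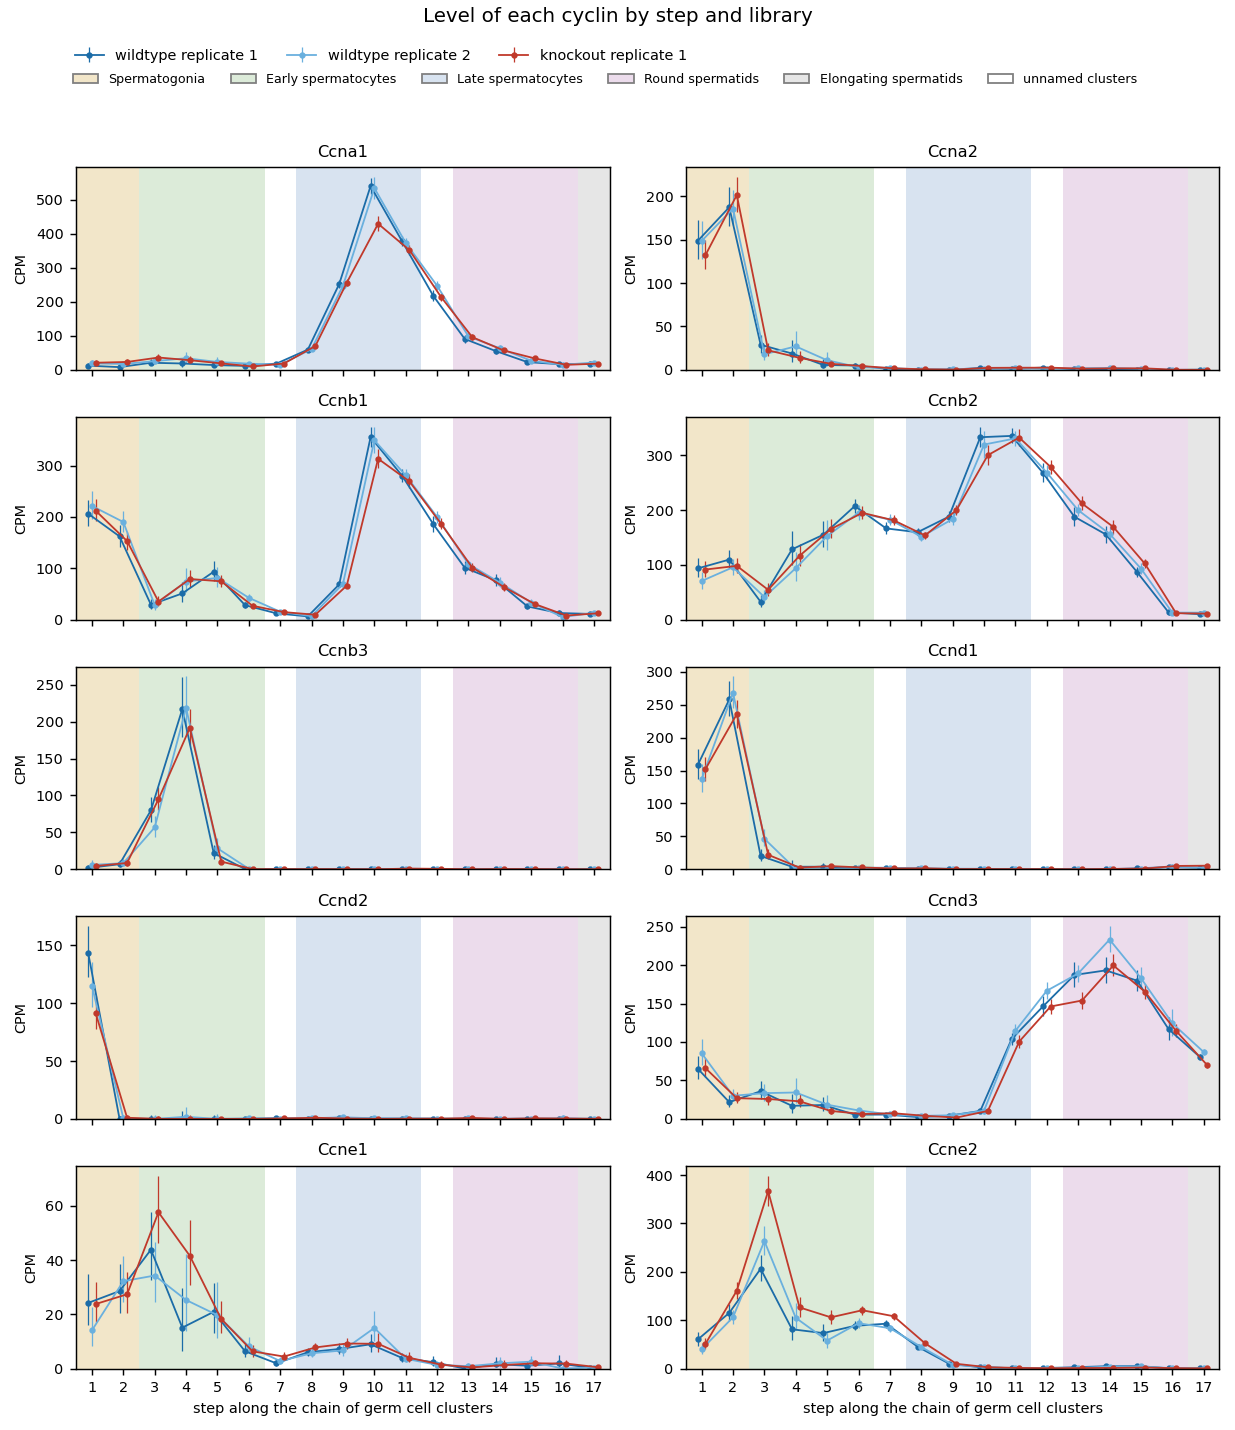
Levels of the 10 cyclins (CPM, vertical axes) at the 17 steps of the germ cell chain (horizontal axis), 1 line per library, with exact 95% Poisson intervals as bars and shading by germ cell class. Each cyclin peaks at the same step in the 3 libraries, and Ccna1 reaches 541, 535 and 430.0 CPM at step 10.

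Ccnd2 (chromosome 6, 127125162 to 127152193, minus strand), a D-type cyclin described in the spermatogonia that turn to differentiation, was confined in the germ line to the first step. It stood at 144, 115 and 91.4 CPM there, from 172, 139 and 169 UMIs. At step 2 only 0, 1 and 2 UMIs of Ccnd2 were counted, and no later step exceeded 1.81 CPM. The knockout value at step 1 was the lowest, by log2 ratios of -0.65 and -0.33, and the wildtype libraries also differed from each other. Ccnd2 was also present in somatic cells, with 277, 309 and 318 CPM in peritubular myoid-like cells. The 7 myoid markers summed to 20.6, 23.0 and 15.6 CPM in spermatogonia against 21992, 20988 and 18039 CPM in the myoid-like cells, so myoid transcripts were near 0 in spermatogonia beside their level in myoid-like cells.

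Ccnd1 (chromosome 7, 144929931 to 144939925, minus strand), the D-type cyclin that couples growth signals to the cell cycle, was high in both spermatogonia steps. Its levels were 159, 137 and 152 CPM at step 1 and 258, 268 and 236 CPM at step 2, where it was 1.55 to 1.96 times higher in each library. At step 3, the step led by the meiotic inducer Stra8, it stood at 20.2, 46.3 and 21.9 CPM. By step 4 the 3 libraries held 2, 0 and 3 UMIs of Ccnd1. The wildtype values at step 3 differed by more than 2-fold, and the knockout value lay between them.

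Ccnd3 (chromosome 17, 47505051 to 47599691, plus strand) was high before meiosis and higher after it. It started at 65.1, 85.4 and 66.0 CPM in step 1 and was down to 2.42, 3.88 and 3.96 CPM at step 8 and 4.04, 4.73 and 1.72 CPM at step 9. Between steps 10 and 11 it was 9.75 to 10.8 times higher, going from 10.3, 10.6 and 10.3 CPM to 104, 115 and 101 CPM. At its peak in round spermatids, step 14, it reached 193, 233 and 199.5 CPM, 47.8 to 116 times its level at step 9. Elongating spermatids still held 80.4, 86.9 and 69.5 CPM. Ccnd3 was the one cyclin of the 10 above 50 CPM in elongating spermatids in any library. Its 3′ end overlaps Bysl on the opposite strand, and 7.66% of the 31-base words of its last 500 bases occur in other transcripts, so part of its level may belong to them.

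The E-type cyclins, which act with Cdk2 at the start of DNA synthesis, peaked together at step 3. Ccne2 (chromosome 4, 11191351 to 11204779, plus strand) rested on the larger counts, with 206, 263 and 367 CPM there, 1.79 to 2.49 times its level at step 2. It then stayed between 57.8 and 126 CPM from step 4 to step 7, with 88.2, 93.7 and 121 CPM at step 6 and 92.7, 83.4 and 108 CPM at step 7. At step 8 it was down to 45.3, 44.5 and 52.1 CPM. Between steps 8 and 10 it was 13.2 to 19.7 times lower, reaching 2.52, 3.38 and 2.65 CPM. Ccne1 (chromosome 7, 38097984 to 38107534, minus strand) stood at 43.9, 34.3 and 57.7 CPM at step 3 and never exceeded 57.7 CPM. It was the lowest of the 10 at its own peak. At steps 10 and 11 it outnumbered Ccne2, with 8.95, 14.98 and 9.13 CPM at step 10, where the share of Ccne2 in E-type UMIs was 22.0%, 18.4% and 22.5%. The share of Ccne2 had been 98.0%, 96.8% and 96.1% at step 7.

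The A-type cyclins replaced each other. Ccna2 (chromosome 3, 36564865 to 36572150, minus strand), the A-type cyclin of dividing cells, stood at 149, 148 and 132 CPM at step 1 and at 187, 186 and 201 CPM at step 2. It was 6.47 to 10.3 times lower at step 3 and 37.1 to 60.6 times lower at step 6, and no later step exceeded 2.65 CPM. Ccna1 was at 8.17 to 36.5 CPM in all libraries from step 1 to step 7. Peritubular myoid-like cells, which are not germ cells, held 21.2, 16.9 and 27.5 CPM of Ccna1, with exact 95% Poisson intervals that together span 7.32 to 42.5 CPM, so the early levels were not above this background. It then reached 59.6, 61.4 and 70.3 CPM at step 8, 253, 248 and 256 CPM at step 9 and 541, 535 and 430.0 CPM at step 10. Steps 8 and 10 differed by 6.12 to 9.07 times. After step 10 Ccna1 was lower at each step, down to 17.0, 15.2 and 14.98 CPM at step 16, again at the myoid level. As a share of A-type UMIs, Ccna1 made up 4.2%, 8.6% and 10.4% at step 2, 42.1%, 58.8% and 61.8% at step 3 and 99.3%, 99.4% and 99.0% at step 8. Up to step 7 this share moved with the level of Ccna2, while Ccna1 stayed at 36.5 CPM or less. With each cell thinned to 2000 UMIs, 66.7%, 62.7% and 45.5% of step 10 cells held a UMI of Ccna1 (98.1%, 95.7% and 85.6% unthinned, at medians of 28756, 22573 and 35311 UMIs). In myoid-like cells it was 4.26%, 2.25% and 5.32% (11.7%, 7.37% and 18.9% unthinned, at medians of 6007, 5276 and 7338 UMIs).

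**Figure D2:**
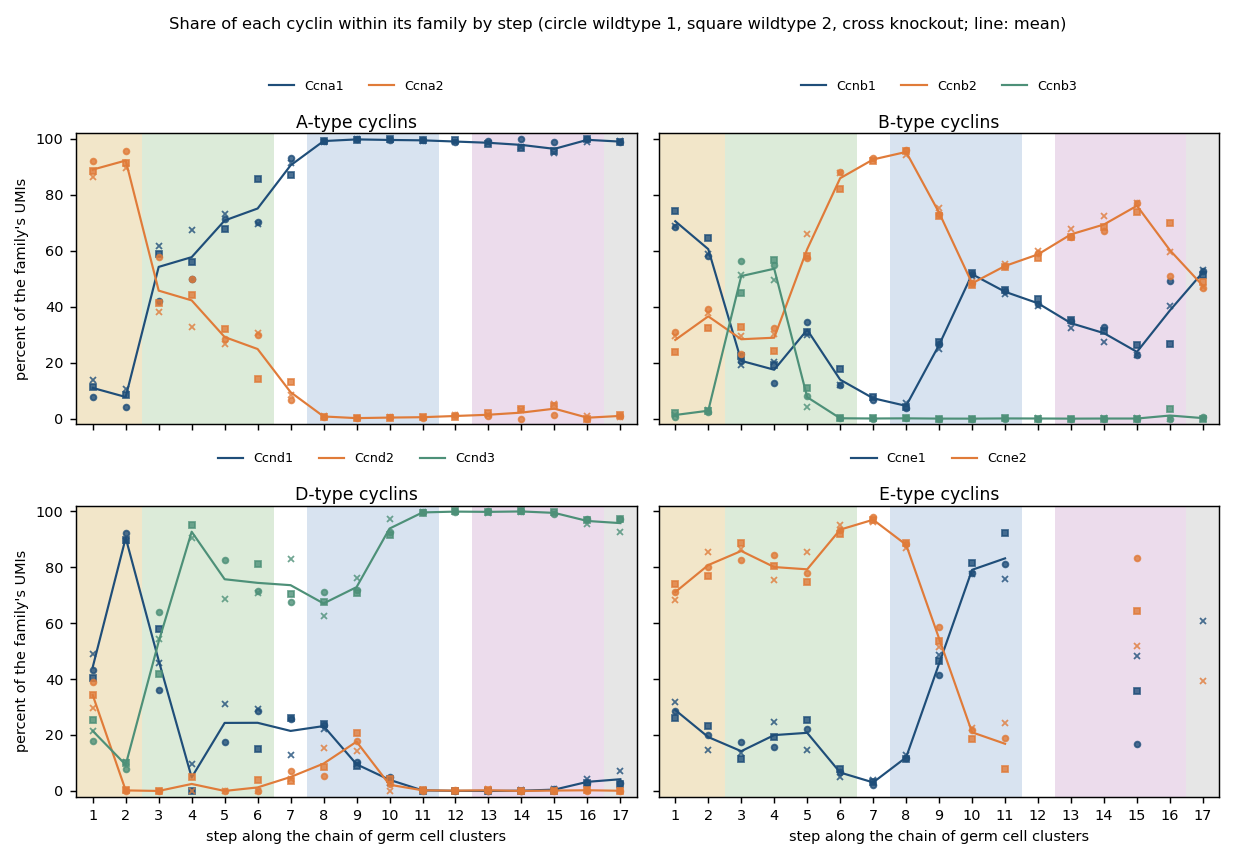
Share of each cyclin in the UMIs of its family (percent, vertical axes) at each step (horizontal axes), with 1 symbol per library, lines at the mean of the libraries shown and shading by class; points with under 20 family UMIs are left out. Ccna1 passes from 4.2%, 8.6% and 10.4% of A-type UMIs at step 2 to 99.3%, 99.4% and 99.0% at step 8, and Ccnb3 leads the B-type UMIs only at steps 3 and 4.

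The 3 B-type cyclins gave 3 different patterns. Ccnb1, the main partner of Cdk1 in mitosis, was high in spermatogonia and again in late spermatocytes. It stood at 206, 221 and 212 CPM in spermatogonia step 1, was 22.6 to 33.3 times lower at step 8 with 6.19, 6.64 and 9.39 CPM, and was 33.4 to 57.5 times higher again at step 10 with 356, 349 and 313 CPM. Between these, a smaller maximum held 50.9, 74.1 and 79.1 CPM at step 4 and 93.2, 81.2 and 74.5 CPM at step 5. By germ cell class Ccnb1 was highest in spermatogonia, with 182, 203 and 181 CPM against 129.9, 138 and 101 CPM in late spermatocytes, because the late class also holds steps 8 and 9. Of the 31-base words in the last 500 bases of Ccnb1, 36.55% are shared with processed copies such as Ccnb1-ps and Gm12856, none of which is in the count tables, so its level is uncertain. Ccnb2, a B-type cyclin found largely at the Golgi in somatic cells, stood at 110, 95.6 and 98.1 CPM at step 2 and was lower at step 3. It stayed at 151 CPM or more in every library from step 5 to step 14. From 32.5, 41.2 and 54.4 CPM at step 3 it came to 207, 195 and 195 CPM at step 6, 160, 151 and 154 CPM at step 8 and 336, 331 and 333 CPM at step 11. It was then lost within round spermatids, being 6.54 to 8.80 times lower at step 16 than at step 15. At step 8 Ccnb2 made up 96.2%, 95.7% and 94.1% of the B-type UMIs, and at step 10 Ccnb1 was level with it at 51.6%, 52.2% and 51.1%.

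Ccnb3 marked a short window in early prophase. It stood at 6.81, 8.19 and 8.47 CPM at step 2, at 79.8, 56.6 and 94.8 CPM at step 3 and at 217, 219 and 192 CPM at step 4, where it was 22.6 to 31.9 times higher than at step 2. With each cell thinned to 2000 UMIs, 35.3%, 37.7% and 30.9% of step 4 cells held a UMI of Ccnb3, and unthinned 69.0%, 51.3% and 71.8% did. The median step 4 cell held 6132, 4588 and 8455 UMIs. Peritubular myoid-like cells, of like depth, had 0 UMIs of Ccnb3 in every library, which bounds its level there at 6.51, 7.82 and 5.07 CPM (exact 95% Poisson). At step 5 it was 7.72 to 18.6 times lower, and at step 6 the libraries held 1, 2 and 1 UMIs. The X-linked share of all UMIs in the same cells was 2.34%, 2.33% and 2.25% at step 4, 0.628%, 0.776% and 0.528% at step 5 and 0.109%, 0.122% and 0.114% at step 6. This share was lowest at step 9, with 0.0255%, 0.0338% and 0.0231%. It was already 0.708%, 0.683% and 0.702% at step 11, the last step named late spermatocyte-like. No late spermatocyte marker was among the leading genes of step 11, so these values do not place the return before or after the divisions. The X-linked share reached 2.12%, 2.05% and 2.03% at step 15, whereas Ccnb3 did not return, with at most 0.606 CPM in round spermatid steps. Over 62 points (23 clusters, each library with at least 20 cells in a cluster a point, which share depth and library), the 3 genes most like Ccnb3 were Xist (Pearson r = 0.98), Cmc4 (0.97) and Magea10 (0.97). All 3 are X-linked, and of the 30 genes so found for the 10 cyclins no others were.

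**Figure D3:**
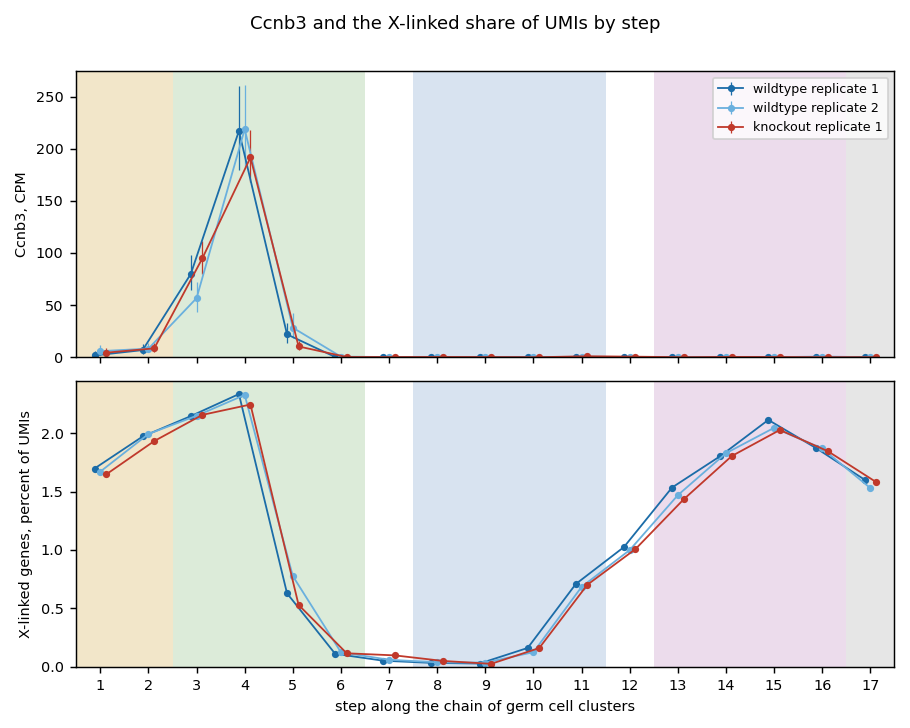
Ccnb3 in CPM with exact 95% Poisson intervals (upper panel) and X-linked genes as a percent of UMIs (lower panel) at each step of the chain (horizontal axis), 1 line per library. Both fall from step 4 to step 6, and the X-linked share returns to 2.12%, 2.05% and 2.03% at step 15 while Ccnb3 stays at or near 0.

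Among the other cyclins the most similar patterns named different companions. Ccna1 ran with Dydc1 (r = 0.95), Pdzd9 (0.95) and Akirin2 (0.94), and Ccna2 with Map3k1, Cenpa and Zfp266 (0.96 each). Ccnb1 was closest to the mitotic kinase gene Plk1 (0.93), followed by Lin7c (0.89) and Hspbap1 (0.86), and Ccnb2 to Med28, Ints10 and Cetn3 (0.97 each). Among the nearest genes to Ccnd1 were Tbx1 (0.94) and Uchl1 (0.90), and those nearest to Ccnd2 were Foxf1 (0.96), Upp1 (0.96) and Asphd2 (0.95). Ccnd3 followed Arhgef2 (0.97), Rab3il1 (0.94) and Cib4 (0.93). Ccne1 was most like Akap11, Esyt2 and Setd5 (0.95 each), and Ccne2 most like Mindy2, Tiparp and U2af2 (0.96 each). Within the 10, Ccne1 and Ccne2 were the most alike (0.89), then Ccna2 and Ccne1 (0.80) and Ccnb1 and Ccnb2 (0.78). Ccna1 and Ccna2 had r = -0.18. These values describe 62 points that share clusters and libraries and carry no test.

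The partners of the cyclins, taken by the step with the highest mean over the libraries, peaked at their own steps. Cdk4 and Cdk6, the kinases of D-type cyclins, were highest at step 1 (132 to 143 CPM and 41.1 to 59.7 CPM over the libraries), as Ccnd2 was. Cdk2 peaked at step 3 (58.3 to 79.8 CPM) beside Ccne1 and Ccne2, and Cdk1 at step 5 (294 to 354 CPM), before the peak of Ccnb1. Of the 7 kinase inhibitors, 5 reached 20 CPM. Cdkn2a peaked at step 2 (306 to 359.7 CPM), Cdkn2d at step 9 (253 to 260 CPM) and Cdkn1c in elongating spermatids (247 to 272 CPM). Cdkn2d, an inhibitor of Cdk4 and Cdk6, was thus highest where D-type levels were low. Among genes of cyclin breakdown, Cdc20 peaked at step 5 (406 to 423 CPM) and Fzr1, its counterpart in late M phase, at step 10 (159 to 174 CPM). Of 12 other M-phase genes, 8 peaked in spermatogonia and only Plk1 (198 to 212 CPM) and Aurka (427 to 445 CPM) peaked at step 10 with Ccna1 and Ccnb1. Of 14 replication genes, 9 peaked in spermatogonia and 4 at step 3, and the remaining Pcna peaked at the unnamed step 7. Foxm1, a transcription factor of M-phase genes, peaked at step 10 (50.2 to 70.4 CPM) and Mybl1, a meiotic MYB factor, at step 6 (173 to 181 CPM).

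Knockout and wildtype cells were compared class by class with a fixed size rule. A gene passed when its level differed by at least 2-fold from each wildtype library in the same direction, by at least 2 times the log2 gap between the wildtype libraries, with 20 CPM in some library and 1 CPM added to each value. Of the 50 pairs of a cyclin and a class, 26 could be tested, every cyclin in at least 1 class, and 0 passed. Over all genes tested, the rule called 0.352% of spermatogonia's, 0.218% of early spermatocytes', 0.916% of late spermatocytes', 1.23% of round spermatids' and 1.48% of elongating spermatids' genes, shares at which 26 pairs would seldom give a call, so 0 calls is not a result particular to the cyclins. Without wildtype replicate 2, 1 pair passed, Ccna1 in spermatogonia (10.1, 18.1 and 22.3 CPM). Of the 26 pairs, 6 lay above both wildtype libraries, 12 below both and 8 between. The shares over all genes are not given here, so these counts do not set the cyclins apart. Pairs of the same cyclin in several classes are also not independent. The median log2 ratio of the cyclins tested was -0.02, 0.13, -0.22, -0.22 and -0.17 from spermatogonia to elongating spermatids, against -0.00, 0.02, 0.02, -0.08 and 0.01 over all genes tested. No gene of the lists of partner kinases, inhibitors, activators, breakdown genes, transcription factors, other cyclins, replication genes or M-phase genes passed in any class.

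**Figure D4:**
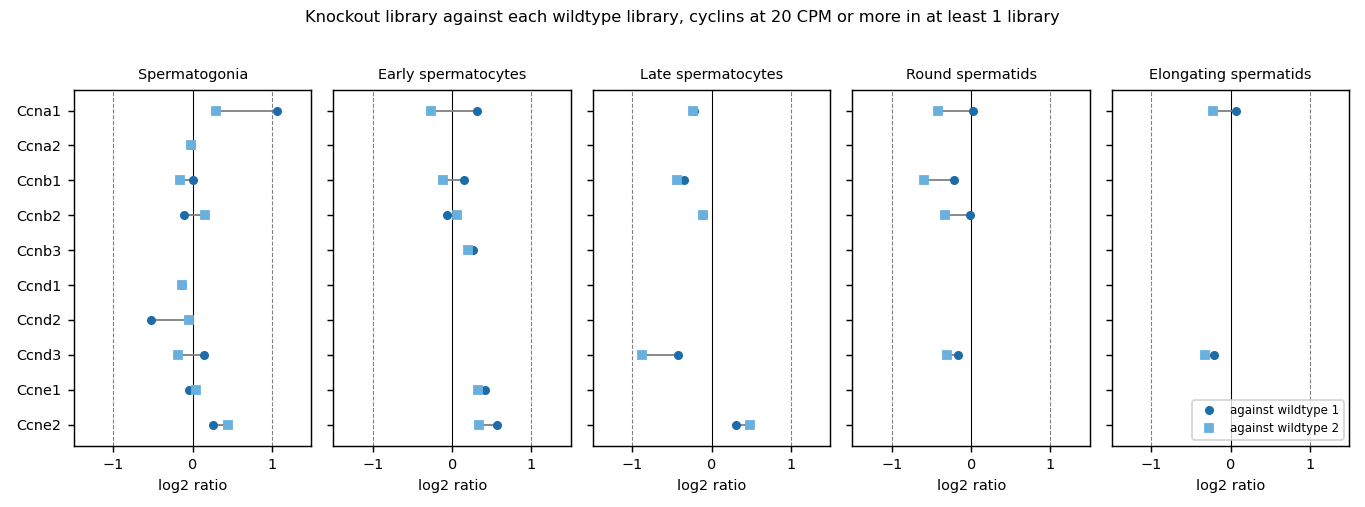
Log2 ratio of the knockout library to each wildtype library (horizontal axes, 1 CPM added) for the cyclins tested in each germ cell class (1 panel each), circles against wildtype replicate 1 and squares against wildtype replicate 2. The dashed lines mark a 2-fold difference, and no cyclin lies beyond 1 of them with both symbols.

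Ccne2 was higher in the knockout library than in both wildtype libraries in 3 classes. In spermatogonia it stood at 90.4, 79.7 and 108 CPM, in early spermatocytes at 104, 121 and 153 CPM, and in late spermatocytes at 20.9, 18.5 and 26.2 CPM. The log2 ratios were 0.26 and 0.44, 0.56 and 0.34, and 0.31 and 0.48, all short of 2-fold. In round and elongating spermatids, under 20 CPM and so not tested, the knockout value of Ccne2 lay below both wildtype values. It stood there at 3.60, 2.69 and 1.31 CPM and at 0.355, 0.507 and 0.314 CPM. The knockout value lay between the wildtype values at step 1 (60.1, 39.8 and 50.9 CPM). It lay above both at each of steps 2 to 8, with the widest gap in CPM at step 3. The exact 95% Poisson intervals there were 181 to 234, 235 to 295 and 337 to 399 CPM. The wildtype intervals did not overlap each other either, so lack of overlap does not set the knockout library apart. The share of all genes with such gaps is not given here. Ccne1 also lay above both wildtype libraries at step 3, and at step 4 with 15.1, 25.3 and 41.6 CPM, from 8, 14 and 51 UMIs. Intervals cover counting error only, and the spread among knockout mice is unknown. Ccne2 lies on chromosome 4, as does the targeted gene Tex10 (48430858 to 48473459, minus strand). A part of this shared position in the values of Ccne2 was not tested.

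The 12 pairs below both wildtype libraries lay in each class but early spermatocytes. At its peak, step 10, Ccna1 stood at 541, 535 and 430.0 CPM. The log2 ratios were -0.33 and -0.31, and it did not pass the size rule. The wildtype mean was 538 ± 4.31 CPM (SD, n = 2), and an SD of 2 mice cannot gauge the spread between mice. Ccnb1 at step 10 had log2 ratios of -0.18 and -0.16. In late spermatocytes as a whole Ccnd3 had the lowest ratio of the 26, with 27.6, 38.6 and 20.4 CPM and a mean log2 ratio of -0.65. That class gap depends on how many cells stood at step 11, which were 228 of 549, 311 of 593 and 152 of 481 late spermatocytes. With equal weight to each cluster the mean log2 ratio of Ccnd3 was -0.12, and within step 11 it was -0.12. For Ccnb1 in late spermatocytes the mean log2 ratio of -0.40 became -0.11 with equal weights. In elongating spermatids Ccnd3 stood at 80.4, 86.9 and 69.5 CPM, but the libraries filled different clusters there, with 399 of 404, 327 of 357 and 274 of 279 cells of clusters 14, 15 and 20 from the knockout library and 45 of 768, 12 of 592, 21 of 549 and 37 of 489 cells of clusters 1, 3, 5 and 9.

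Step by step, 75 of 160 pairs of a cyclin and a step could be tested and 1 passed, which was Ccnb3 at step 5, lower in the knockout library. This comparison was added after the data had been seen. The rule called 0.590% of the 6776 genes tested at step 5, and 0.443% as lower. At steps 1 to 4, where no cyclin passed, it called 0.453%, 0.431%, 0.606% and 0.773% of genes, at steps 6 to 8 0.252%, 1.25% and 0.784%, and at steps 9 to 12 0.939%, 1.16%, 1.01% and 1.24%. At steps 13 to 16 it called 1.23%, 1.19%, 1.24% and 1.38%, again with no cyclin. Ccnb3 stood there at 21.9, 28.3 and 10.3 CPM, from 23, 23 and 22 UMIs, with exact 95% Poisson intervals of 13.9 to 32.8, 17.9 to 42.5 and 6.46 to 15.6 CPM. The log2 ratios were -1.02 and -1.37, the first just past the threshold, and with 5 CPM added in place of 1 no cyclin passed. Without wildtype replicate 1 the count was 2, with Ccnd1 at step 3 as well, and without wildtype replicate 2 it was 3, with Ccna1 at step 2 and Ccne1 at step 4. The X-linked share of UMIs at step 5 was likewise lowest in the knockout library. Of the 97 X-linked genes tested, Ccnb3 included, 64 lay under both wildtype libraries, and the share over all genes is not given here. The median log2 ratio of the 97 was -0.46, against 0.03 over all genes tested. Ccnb3 was 1 of the 4 called lower, and 0 were called higher. These values are thus not independent of Ccnb3. The part of this X-linked difference in the value of Ccnb3 was not tested. At step 4, where Ccnb3 peaks, its log2 ratios were -0.18 and -0.19. With the chain cut into 20 bins instead, the direction was not kept. The bin where step 5 was most frequent held 11.6, 16.9 and 24.4 CPM of Ccnb3, with the knockout value highest.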

How the data were processed

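Single-cell 3′ RNA libraries of 2 wildtype testes and 1 pool of 2 knockout testes were analysed. The deposited values are raw UMI counts per gene and barcode, made with Cell Ranger 4.0.0 per the submitters' processing notes, which also name Seurat 4.0.5 and mm10. The use of strand in counting is not given in the sources used here. Barcodes needed 1000 UMIs, 500 genes and at most 10% mitochondrial UMIs. Scrublet's automatic threshold marked 0, 1 and 0 barcodes, so the top 8% of scores per library were left out. Cells were clustered without the 10 cyclins (scanpy 1.11.5, leidenalg 0.10.2, resolution 1) and named from marker genes, with a second round of clustering within germ cells and joined spermatogonia lists, both chosen after seeing the data. Clusters with a median under 3 times the lowest deposited UMI total were not named. Diffusion pseudotime placed elongating spermatids among early spermatocytes, so steps follow the spanning tree of cluster connectivity instead. UMIs were summed per library and class or step and given as CPM with exact 95% Poisson intervals, which cover counting error only. Cells were not used as replicates. The size rule was tested on simulated data. The text names all 10 cyclins, the 3 genes most like each over named clusters (1 is not reported here), and genes of fixed lists. The cyclins and lists were chosen with earlier results of these data known. Alternatives varied weights, doublets, filters, pseudocount, threshold, resolution and libraries.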

Additional observations from a re-analysis of the deposited data

Results flagged for a closer look

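Ccna1 stood above both wildtype libraries in spermatogonia of the knockout library (log2 ratios of 1.07 and 0.29) and under both in late spermatocytes (-0.22 and -0.23). The 2 mean log2 ratios differ by 0.9, and they were set apart because the knockout library moved in opposite directions in the 2 classes. The difference was not tested. In spermatogonia the values were 10.1, 18.1 and 22.3 CPM from 27, 55 and 86 UMIs, and peritubular myoid-like cells held 21.2, 16.9 and 27.5 CPM of Ccna1.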

How the results depend on the processing

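No cyclin passed the size rule by class under any alternative except without wildtype replicate 2, where 1 did, Ccna1 in spermatogonia; without wildtype replicate 1 the count was 0. By step, 1 passed, and leaving out 1 wildtype library gave 2 to 3, adding Ccnd1 at step 3 in one case and Ccna1 at step 2 and Ccne1 at step 4 in the other, while Ccnb3 at step 5 was called in both. With 5 CPM added, or with 20 bins along the chain in place of steps, 0 passed, and the cause was not tested. In bin 4, where step 5 was the most frequent step, Ccnb3 stood at 11.6, 16.9 and 24.4 CPM. The knockout value was thus above both wildtype values there, opposite to the call at step 5. The highest class was shared by the 3 libraries for 10 of 10 cyclins, and for 8 with a mean over cells and 9 with equal weights to clusters. The highest of 20 bins of diffusion pseudotime was shared within 1 bin for 8 of 10 cyclins, and for 8 to 10 under the alternatives. That pseudotime placed elongating spermatids among early spermatocytes, so this sharing does not bear on the order of the peaks. In bin 11, the highest for Ccnb3, 69.1% of cells were of step 17. Of the 26 tested log2 ratios, 12 kept 1 sign under every alternative run. No paired analysis was possible because the knockout group has 1 library. Step 4 had the lowest depth of the steps in the wildtype libraries, with 529942 and 553419 UMIs, which limits the values there.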

Other observations

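Outside the germ line, the D-type cyclins of peritubular myoid-like cells were Ccnd2, with 277, 309 and 318 CPM, and Ccnd3, with 124, 176 and 92.2 CPM. After thinning to 2000 UMIs, 36.2%, 44.9% and 48.9% of these cells held a UMI of Ccnd2, against 3.56%, 4.78% and 5.20% of spermatogonia (unthinned 13.3%, 11.6% and 13.5%, at medians of 10931, 8438 and 14154 UMIs). Ccnb3 and Ccne2 had no UMI in them in any library. Cells of the interstitial list, 32, 41 and 46 in number, held 143, 284 and 253 CPM of Ccnd2 and 246, 170 and 139 CPM of Ccnd3.

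Cyclins outside the 10 also peaked in prophase. Cntd1, which acts in meiotic crossing over, was highest at step 6 with 333 to 366 CPM, and Ccnk, a cyclin of transcription, at step 8 with 279 to 297 CPM. Of 18 such cyclins, 17 reached 20 CPM, of which 8 peaked in early spermatocytes and 6 in spermatogonia. The others, besides Ccnk, were Ccni at the unnamed step 7 and Ccnyl1 in elongating spermatids. Cks2, a small subunit of cyclin-dependent kinases, reached 1331 to 1565 CPM at step 6.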
